A study of Mus musculus with 12 samples.

Results

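Liver RNA from mice on a high-fat diet (HFD) was compared with liver RNA from mice on normal chow (NCD), both given vehicle (veh). The comparison uses 2 of the 12 RNA-seq libraries of the study, HFD-veh liver and NCD-veh liver, with 1 library per group. Both libraries came from male C57BL/6J mice that were kept on their diet between the ages of 8 wk and 17 wk and were gavaged with vehicle each week from 10 wk on, so handling and vehicle are shared and diet is the labelled difference. The number of mice behind each library and the time of day of collection are not given in the sources used here. One more liver library, from HFD mice given narciclasine (HFD-ncls), is set beside the others as a level only, since a comparison of it with NCD-veh would use the same control library. Values are FPKM (fragments counted on a gene, divided by its exon length and by the mapped total), so levels of different genes can be set side by side, and a log2 ratio is log2 of (HFD-veh FPKM + 0.1) over (NCD-veh FPKM + 0.1). With 1 library per group there is no spread between animals, and no p-value is given. A gene was called higher or lower when its ratio was over 2-fold, among genes that reached 1 FPKM in either library.

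The liver makes fatty acids and cholesterol from acetyl-CoA, and both routes are set largely by the SREBP transcription factors, which are held back when sterols are plentiful and, for SREBP-1c, raised by insulin and by the oxysterol receptor LXR. Hepatocytes also carry the cytochrome P450 and conjugating enzymes that clear drugs and steroids, make bile acids from cholesterol, and secrete the acute-phase proteins in response to interleukin-6 and interleukin-1. Many of these genes vary through the day, because a molecular clock (Arntl and Clock as activators, Per and Cry as repressors, Dbp and Nfil3 as output factors with opposing action) runs in the hepatocyte and is read together with feeding.

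Both libraries had the make-up of liver. Of 10 hepatocyte markers, 9 had values and were compared, with levels from 242 FPKM (Glul) to 11392 (Apoa1) in NCD-veh, and none differed over 2-fold. Albumin (Alb) has no value in any liver library. The median log2 ratio of these markers was 0.03. Endothelial markers (7 of 7 compared) also had none over 2-fold, with a median of -0.13. Of the other marker sets, 2 of 8 exocrine pancreas genes passed the filter (Cela1 at 4.85 and 11.3 FPKM, and Amy2b within 2-fold), 2 of 5 bile duct genes (Sox9 lower, at 3.74 and 1.49) and 4 of 5 stellate cell genes (1 higher and 1 lower). The depth, estimated from the steps of low FPKM values, was about 25600000 fragments in NCD-veh and 24500000 in HFD-veh, and is approximate because only 75.6% and 73.9% of such values lay within 0.15 of a whole fragment. Because these are bulk samples, fewer cells of a type and less RNA per cell cannot be told apart.

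Of 22276 symbols, 10016 reached 1 FPKM in either library. The 56 muscle-enriched genes among them were counted apart, as was Nfyc, listed at 5.53 FPKM in NCD-veh and 0.000135 in HFD-veh, where a failed estimate is possible. This left 9959 genes, of which 271 (2.72%) were over 2-fold higher and 225 (2.26%) over 2-fold lower in HFD-veh. Over 4-fold differences were found for 49 genes higher and 32 lower, and 7607 genes (76.4%) lay within 1.4-fold. The median log2 ratio was 0.04 (quartiles -0.23 and 0.30). Every list below is read against these shares and this median. Of the 496 genes called, 131 belonged to at least 1 of the lists of lipid, sterol, xenobiotic, immune and related genes. The share of all compared genes in a list is not given, so this count shows coverage only. In the other organs the same diet comparison gave 5.24% higher and 3.87% lower in white adipose tissue (WAT). It gave 2.28% and 2.01% in brown adipose tissue (BAT) and 3.14% and 0.97% in quadriceps muscle. These shares count liver genes in. Hepatocyte markers were higher in HFD-veh muscle for 9 of 10 compared (median log2 ratio 5.05). In WAT 4 of 7 were higher and 2 lower (1.87), and in BAT 3 of 3 were lower. The origin of these transcripts was not tested.

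**Figure D1:**
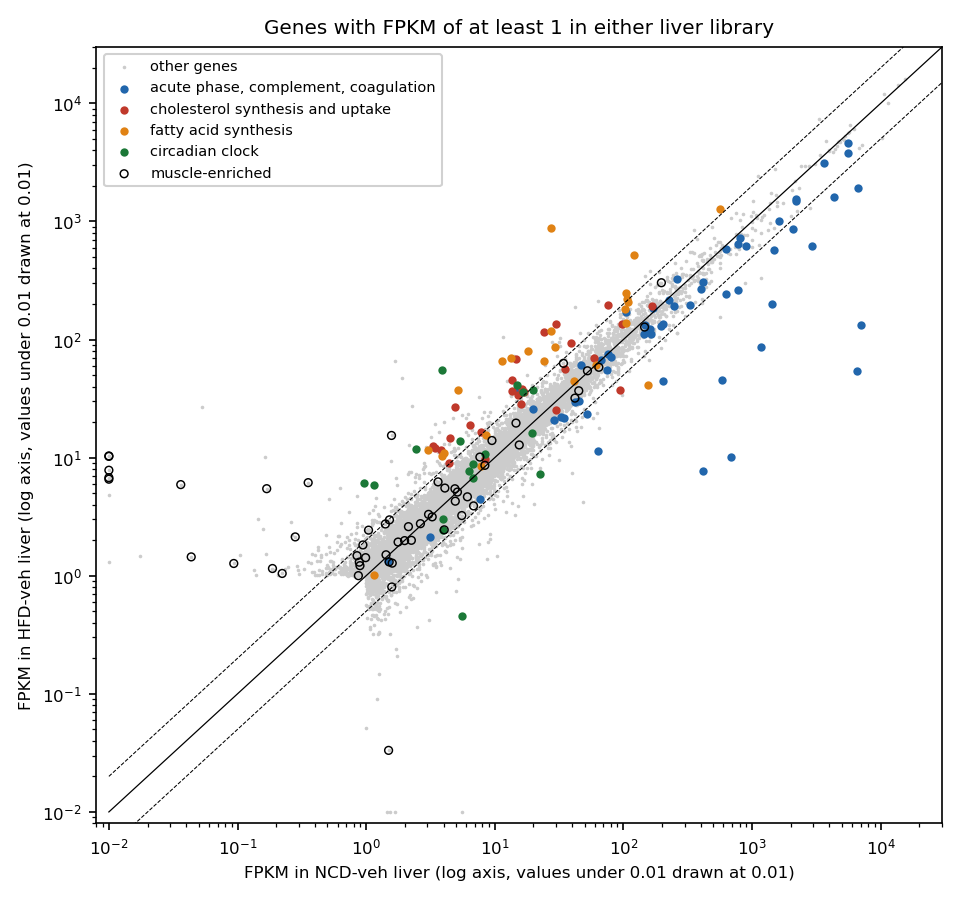
FPKM of each gene that reached 1 FPKM in either library, NCD-veh liver on the x axis and HFD-veh liver on the y axis (log axes, 1 library per axis), with the line of equal levels solid and 2-fold lines dashed. Most genes of fatty acid and cholesterol synthesis lie above the upper line, with Elovl3 and Insig2 below the lower one. The acute-phase genes Saa1, Saa2, Saa3 and Lcn2 lie far below the lower line. At the left edge stand 5 open circles of muscle-enriched genes listed at 0 in NCD-veh.

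The genes that build fatty acids had the highest median of the lipid and sterol lists. Of 25 members, 24 were compared, 15 were over 2-fold higher in HFD-veh and 1 was lower, with a median log2 ratio of 1.32. The summed FPKM of the list was 1653 in NCD-veh and 4404 in HFD-veh, against 5619.8 in HFD-ncls. Thrsp, a lipogenic factor that responds to thyroid hormone and carbohydrate, was listed at 27.4 FPKM in NCD-veh and 887 in HFD-veh, against 1570.2 in HFD-ncls, a log2 ratio of 5.01 that was the largest of the list. Fasn, the fatty acid synthase, was at 11.3, 65.2 and 162 FPKM in the same order (2.51). Elovl6, which elongates palmitate, was at 5.20, 37.5 and 40.7 FPKM (2.83). In all 3 genes NCD-veh was the lowest of the liver libraries.

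Srebf1, which encodes SREBP-1, went from 13.3 FPKM in NCD-veh to 69.9 in HFD-veh (2.38 on the log2 scale), while Mlxipl, which encodes the carbohydrate-sensing factor ChREBP, was at 61.1 and 60.6 FPKM, and Nr1h3, which encodes LXR-alpha, at 41.7 and 44.8. Further members, chosen here and below after their values were seen in order to describe their list, included each step from citrate to palmitate. Acly, which cleaves citrate to acetyl-CoA, was at 18.3 and 79.7 FPKM (2.12), and Acaca, the carboxylase that makes malonyl-CoA, had a log2 ratio of 1.44. Pklr, the liver pyruvate kinase, was at 27.4 and 119 FPKM (log2 ratio 2.11). The desaturases were also higher in HFD-veh: Scd1 was at 561 and 1271 FPKM (1.18), and Fads2 at 122 and 518 (2.09). The exception was Elovl3, an elongase that is higher in male than in female liver, at 154 FPKM in NCD-veh and 41.3 in HFD-veh, against 80.1 in HFD-ncls (-1.90). Pnpla3 did not reach 1 FPKM in either library. Aacs, which feeds acetoacetate into lipid synthesis and was among the 10 genes with the highest log2(FPKM + 1) ratio over the whole table, was at 2.26 FPKM in NCD-veh and 27.4 in HFD-veh, against 64.6 in HFD-ncls (3.54).

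**Figure D2:**
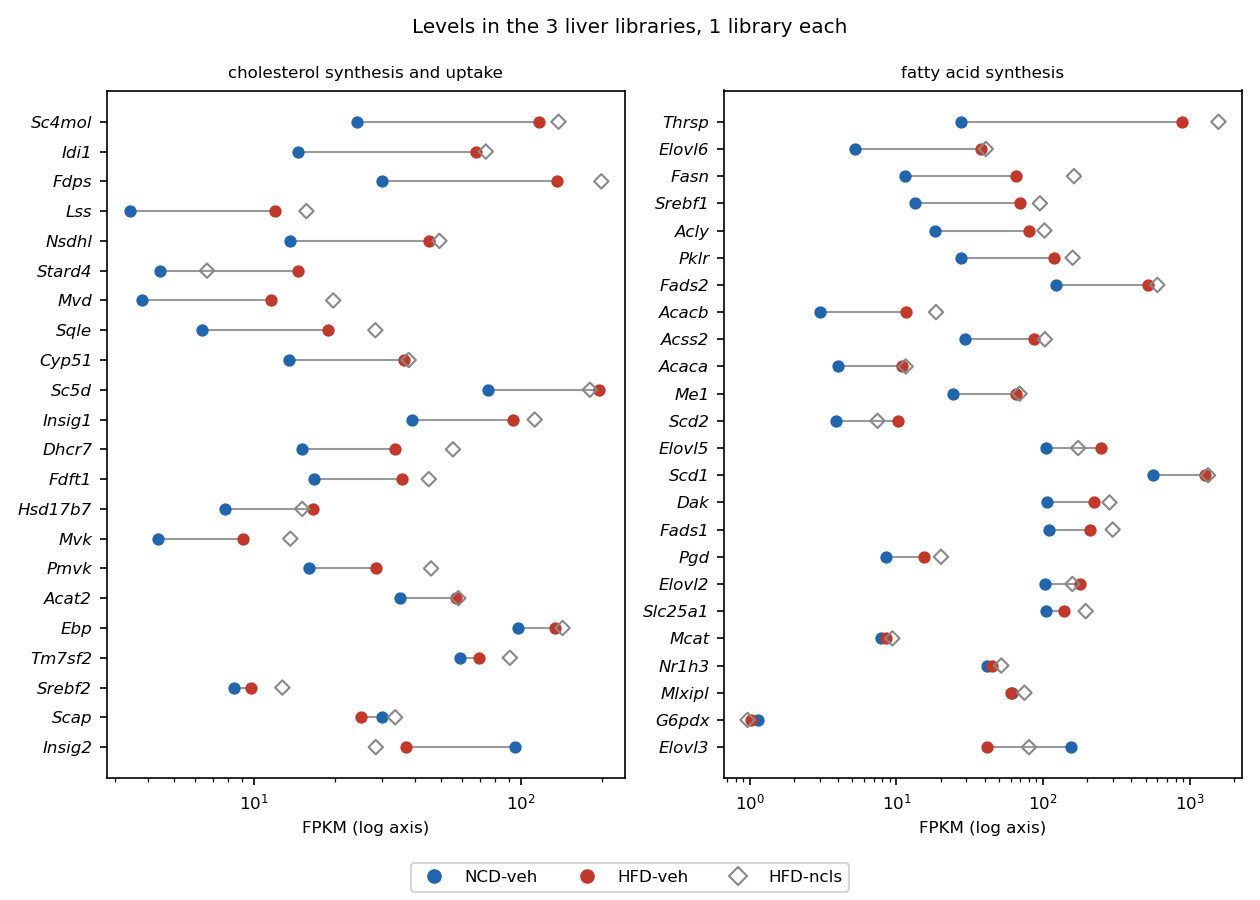
FPKM (log axis) of 22 of the 26 compared genes of cholesterol synthesis and uptake and the 24 of fatty acid synthesis in NCD-veh (blue circles), HFD-veh (red circles) and HFD-ncls liver (grey diamonds), 1 library each, ordered by the log2 ratio of HFD-veh over NCD-veh. NCD-veh is the lowest of the 3 points for most genes of both lists, while Insig2 and Elovl3 run the other way.

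Fewer genes of triglyceride storage differed. Of 25 compared members of the triglyceride and lipid droplet list, 4 were over 2-fold higher and none lower, with a median log2 ratio of 0.23, and the summed FPKM was 1879.8 in NCD-veh and 1857 in HFD-veh. Mogat1, a monoacylglycerol acyltransferase that is low in lean liver, was at 0.234 FPKM in NCD-veh and 1.14 in HFD-veh (1.89). Lpin1, a phosphatidate phosphatase, was at 12.4 and 44.7 FPKM, with 110.4 in HFD-ncls. Cidec, a droplet protein of fat cells and fatty liver, was at 1.75, 5.88 and 2.43 FPKM in the NCD-veh, HFD-veh and HFD-ncls libraries. Its relative Cidea was listed at 0 in NCD-veh and at 0.255 FPKM in HFD-veh, under the filter in both. The droplet coat genes that liver expresses most did not share this direction: Plin2 was at 322 FPKM in NCD-veh and 228 in HFD-veh, and Plin5 at 32.4 and 17.3 (-0.90), both within 2-fold.

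Among genes for fatty acid uptake, binding and activation, 4 of 21 compared were over 2-fold higher and none lower (median log2 ratio 0.51). Cd36, a fatty acid translocase, was at 5.98 FPKM in NCD-veh and 21.5 in HFD-veh (1.83), with 7.38 in HFD-ncls. The binding proteins Fabp1 and Fabp2 were at 3339 and 32.4 FPKM in NCD-veh, and at 7341 and 102 in HFD-veh. Acsl3, an acyl-CoA synthetase, was at 3.29 and 7.37 FPKM, and the lipase Lpl at 2.89 and 1.59 (log2 ratio -0.82). Pparg, a nuclear receptor that drives storage genes such as Cidec, Mogat1 and Cd36 in fatty liver, was at 2.81 FPKM in NCD-veh and 7.47 in HFD-veh, against 6.22 in HFD-ncls (1.38).

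Fatty acid oxidation stood near the background. Of 38 compared members, 3 were higher and 1 lower, with a median log2 ratio of 0.15. The higher genes were Acot3, a peroxisomal thioesterase, at 15.2 and 38.2 FPKM, Aldh3a2, a fatty aldehyde dehydrogenase, at 75.8 and 188, and Vnn1, a pantetheinase and PPAR-alpha target, at 15.6 and 34.1. Fgf21, a hormone made by liver in fasting and stress, was lower, at 8.83 FPKM in NCD-veh and 3.29 in HFD-veh (-1.40). The mitochondrial gate Cpt1a was at 83.4 and 112 FPKM. Cyp4a14, an omega-hydroxylase often used as a PPAR-alpha readout, was at 326 FPKM in NCD-veh and 233 in HFD-veh, against 32.6 in HFD-ncls. Its HFD-veh level was thus within 2-fold of NCD-veh (-0.48).

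**Figure D3:**
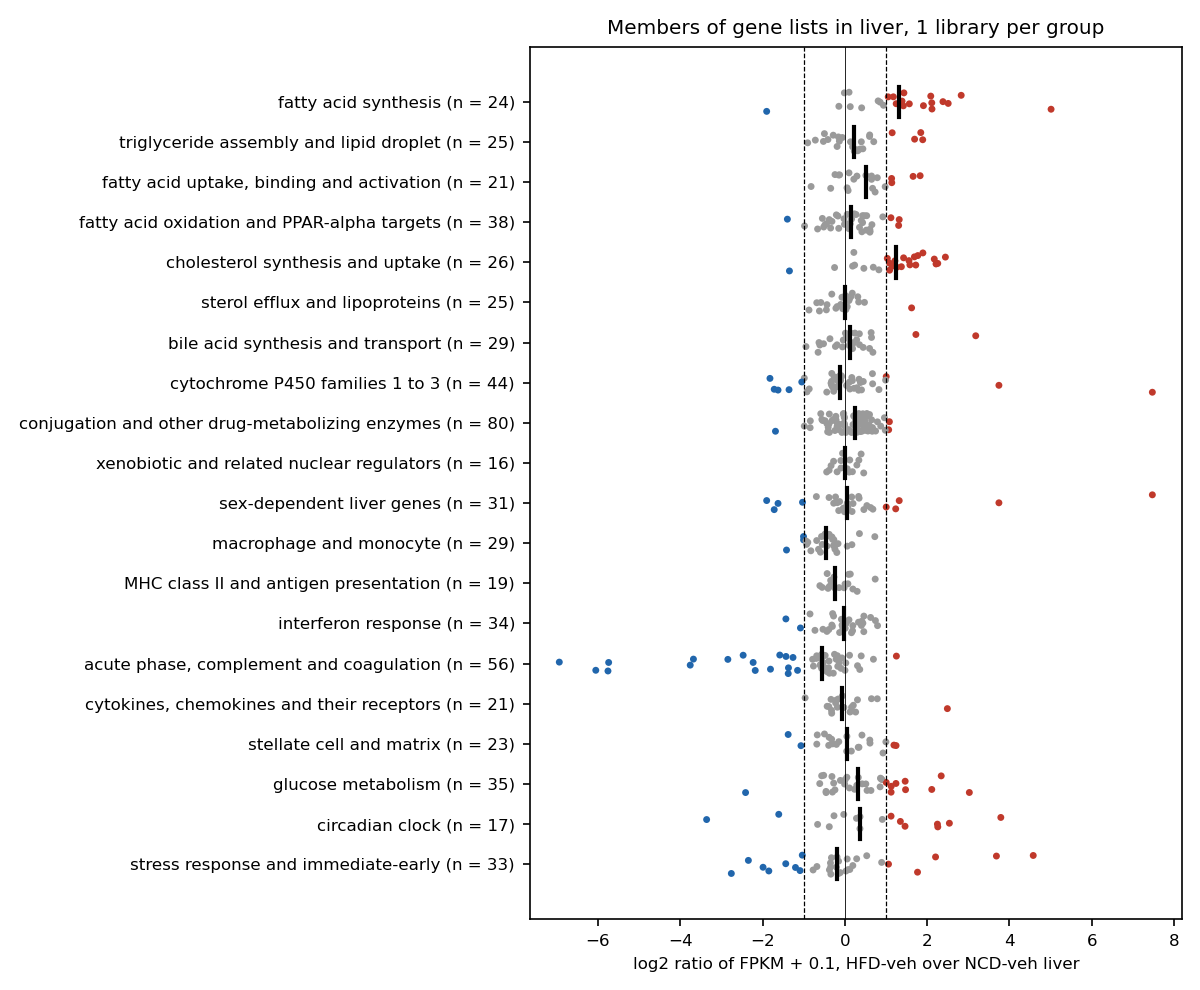
Log2 ratio (x axis) of each compared member of 20 gene lists (y axis, with the number compared), HFD-veh over NCD-veh liver, 1 library per group. Points are genes (red over 2-fold higher, blue over 2-fold lower, grey within), black bars are list medians and dashed lines mark 2-fold. The medians of fatty acid synthesis (1.32) and cholesterol synthesis (1.24) lie past the upper dashed line, and that of the acute-phase list (-0.56) is the lowest.

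Among the lists with at least 10 members compared, and with fast muscle genes apart, cholesterol synthesis had the largest share of members called. All 26 members in the table were compared, 18 were over 2-fold higher in HFD-veh and 1 lower, and the median log2 ratio was 1.24. Sc4mol (now Msmo1), a C4-methylsterol oxidase, was at 24.3 FPKM in NCD-veh and 117 in HFD-veh, against 138 in HFD-ncls (2.26), and Idi1, the isopentenyl diphosphate isomerase, at 14.5, 67.9 and 73.7 (2.22). NCD-veh was the lowest of the liver libraries for each.

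The difference ran along most of the pathway, from the early enzymes Mvk and Mvd (log2 ratios 1.03 and 1.58) through Fdps, at 30.2 FPKM in NCD-veh and 136 in HFD-veh, to Sqle, the squalene epoxidase, at 6.37 and 19.0, and Cyp51, at 13.5 and 36.5. The 2 Insig genes, whose products hold SREBP in the endoplasmic reticulum, ran in opposite directions. Insig1, itself a target of SREBP, was at 38.9 FPKM in NCD-veh and 93.5 in HFD-veh (1.26), and Insig2 at 94.5 and 37.1 (-1.35), with 28.5 in HFD-ncls. Srebf2, which encodes SREBP-2, was at 8.36 and 9.75 FPKM.

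Promoter sequence was read for the members that the RefSeq promoter table (GRCm38.p6) holds, in the 250 bases before the RefSeq transcript start, and located in mm9 by an exact match. Idi1 and Nsdhl, a sterol dehydrogenase at 13.7 FPKM in NCD-veh and 45.3 in HFD-veh (1.72), are shown as higher members whose windows also end before the start in the mm9 annotation, and were chosen after their values were seen. Capitals mark CCAAT or its reverse complement ATTGG, the letters bound by NF-Y, a factor known to act with SREBP at sterol genes. The Idi1 window is chr13:8884602-8884851 on the + strand and the Nsdhl window chrX:70163610-70163859 on the + strand.
Idi1: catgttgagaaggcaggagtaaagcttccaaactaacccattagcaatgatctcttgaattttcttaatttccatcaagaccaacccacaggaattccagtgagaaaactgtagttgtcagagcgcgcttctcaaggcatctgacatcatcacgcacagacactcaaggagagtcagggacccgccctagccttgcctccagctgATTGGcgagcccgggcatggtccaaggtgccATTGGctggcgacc
Nsdhl: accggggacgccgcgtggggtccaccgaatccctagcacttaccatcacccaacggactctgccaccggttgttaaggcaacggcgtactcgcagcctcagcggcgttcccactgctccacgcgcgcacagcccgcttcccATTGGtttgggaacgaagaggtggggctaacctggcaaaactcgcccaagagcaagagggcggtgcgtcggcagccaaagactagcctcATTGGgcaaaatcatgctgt
The first base of each match lies 45 and 14 bases before the start in Idi1, and 109 and 20 bases before it in Nsdhl. Of 18 members with a window, 16 held CCAAT on either strand, against 37.5% of 27025 genes. They included 11 of the 11 that were over 2-fold higher, but also the 1 lower member, Insig2, and members within 2-fold. In the fatty acid synthesis list 12 of 19 held it, among them 9 of the 13 that were higher. The letters TCACNCCAC (either strand), a form of the sterol response element, were in 0 of these 18 windows and in 1 of 19 of the fatty acid synthesis list (Mlxipl), against 1.22% of all genes. A match is a description of the letters in these windows.

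Sterol export and lipoproteins were level between the libraries. Of 25 members compared, 1 was higher and none lower, with a median log2 ratio of 0.02. The gene that was higher was Lipg, an endothelial-type lipase, at 2.83 FPKM in NCD-veh and 8.94 in HFD-veh (1.62). The sterol exporters Abcg5 and Abcg8, which are LXR targets, were at 36.7 and 24.95 FPKM in NCD-veh and 35.0 and 26.8 in HFD-veh. The apolipoprotein gene Apom had the lowest ratio, at 407 and 222 FPKM (-0.87).

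In the bile acid list, 2 of 29 compared were higher and none lower (median 0.14). Cyp7a1, the rate-limiting enzyme of bile acid synthesis from cholesterol, was at 11.5 FPKM in NCD-veh and 105 in HFD-veh, against 60.5 in HFD-ncls (3.18). Cyp8b1, which sets the share of cholic acid, was at 363 and 319 FPKM, and Cyp27a1, of the alternative route, at 241 and 285. Of the hydroxylases on the list, Cyp7a1 was the one over 2-fold. The second gene, Slc10a2, a bile acid importer known best from the ileum and bile ducts, was at 2.11 and 7.22 FPKM (1.73), and the hepatocyte importer Slco1a4 had the lowest ratio, at 18.8 and 9.74 (-0.94). Nr0b2, the repressor SHP that bile acids raise through their receptor Nr1h4, was at 54.6 and 35.8 FPKM.

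The cytochrome P450 genes of families 1 to 3, which oxidize drugs and steroids, differed at a few members. Of 44 compared, 3 were higher and 5 lower, and the median log2 ratio was -0.11. Cyp2b9, a gene that is high in female and low in male liver, was at 0.0525 FPKM in NCD-veh and 27.0 in HFD-veh, against 0.403 in HFD-ncls. Its near copy Cyp2b13 was at 0.0175, 1.47 and 0.0409 FPKM. HFD-veh was the one liver library with either gene over 1 FPKM. At the approximate depth, Cyp2b9 rested on about 2 fragments in NCD-veh and 1107 in HFD-veh, a ratio of 553.5 with a 95% interval of 153 to 4576, and Cyp2b13 on about 1 and 60, a ratio of 60 with an interval of 10.4 to 2409; both intervals cover counting error only.

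The promoters of these neighbours are shown because the genes are near copies. Capitals mark the bases that differ between the aligned windows. Both lie on the + strand of mm9 and come from the RefSeq table, Cyp2b9 at chr7:26958178-26958427 and Cyp2b13 at chr7:26846264-26846513.
Cyp2b9: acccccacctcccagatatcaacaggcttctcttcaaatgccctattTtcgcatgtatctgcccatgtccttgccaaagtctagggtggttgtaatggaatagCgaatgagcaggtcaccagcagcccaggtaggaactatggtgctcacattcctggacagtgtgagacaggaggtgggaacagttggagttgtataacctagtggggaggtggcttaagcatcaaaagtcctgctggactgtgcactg
Cyp2b13: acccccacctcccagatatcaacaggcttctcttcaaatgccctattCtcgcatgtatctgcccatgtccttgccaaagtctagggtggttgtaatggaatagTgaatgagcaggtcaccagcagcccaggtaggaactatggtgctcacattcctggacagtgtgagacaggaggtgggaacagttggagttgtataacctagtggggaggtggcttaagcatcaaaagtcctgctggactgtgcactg
The windows were identical at 248 of 250 bases (99.2%). The windows lie before the transcripts and do not measure how far reads are shared. Reads may be shared between the copies, and with Cyp2b10, but the transcripts were not compared here, so the split of fragments is uncertain. Cyp2b10, the classic target of the xenobiotic receptor CAR, was at 0.697 FPKM in NCD-veh and 1.17 in HFD-veh, against 0.182 in HFD-ncls (0.68).

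The third higher gene was Cyp2a4, a steroid hydroxylase with a near copy in Cyp2a5, at 49.1 and 98.8 FPKM, where Cyp2a5 was at 188 and 374. The genes that were lower were mostly of the Cyp3a family. Cyp3a11, the main drug-oxidizing enzyme of mouse liver and a target of the receptor PXR, was at 1165 FPKM in NCD-veh and 330.1 in HFD-veh, against 177 in HFD-ncls (-1.82). Its copies Cyp3a44 and Cyp3a16 were at 31.7 and 39.0 FPKM in NCD-veh and 9.59 and 12.6 in HFD-veh, and Cyp3a59 had a log2 ratio of -1.05, all with shared reads possible. In each of these the order was NCD-veh, then HFD-veh, then HFD-ncls. Cyp3a13, a more distant member, was at 71.3 and 61.5 FPKM. Cyp1a2, the target of the aryl hydrocarbon receptor, was at 265 and 241 FPKM.

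The receptors that govern these enzymes were level. Of 16 regulators compared, none was over 2-fold either way, with a median log2 ratio of 0.00. Nr1i2 (PXR) was at 28.4 FPKM in NCD-veh and 26.5 in HFD-veh, and Nr1i3 (CAR) at 123 and 115. The widest ratios were those of Cebpb (0.46) and Nr2f6 (-0.44). Among conjugating and other enzymes, 2 of 80 compared were higher and 1 lower, with a median of 0.24. The carboxylesterase Ces2e was at 53.3 and 113 FPKM and the glucuronosyltransferase Ugt1a5 at 9.30 and 19.6. Ugt1a9 was at 13.6 and 4.15 FPKM (-1.69), and since the Ugt1a genes share their last exons, reads can be divided between them. Gstp1 and Gstp2, near copies that are higher in male liver, had the same log2 ratio of -0.84.

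Sex-dependent liver genes, which follow the pattern of growth hormone release, gave 5 higher and 4 lower of 31 compared, with a median log2 ratio of 0.06. Among genes known to be higher in females, Cyp2b9, Cyp2b13 and Cyp2a4 were over 2-fold higher in HFD-veh, while Cyp3a16 and Cyp3a44 were lower. Among those higher in males, Elovl3 was lower, and Cyp2d9, Cyp4a12a and Mup20 lay within 2-fold, at 921, 65.1 and 6749 FPKM in NCD-veh and 763, 58.8 and 4179.6 in HFD-veh. The female-biased genes named here therefore ran in both directions. The male-biased genes named were all below their NCD-veh level, with Elovl3 alone over 2-fold. They are only some of the male-biased members and do not stand for the list, where 17 of the 31 compared had a ratio above 0. Acot3, also on this list, was higher in HFD-veh (log2 ratio 1.32), and not every called member is named here.

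Among the lists with at least 10 members compared, the acute-phase list had the lowest median, and its high library was NCD-veh. Of 56 compared members of the acute-phase, complement and coagulation list, 17 were over 2-fold lower in HFD-veh and 1 higher, and the median log2 ratio was -0.56. Saa1 and Saa2, the inducible serum amyloid A proteins, were at 7071 and 6590.1 FPKM in NCD-veh, at 132 and 53.7 in HFD-veh and at 299 and 118 in HFD-ncls (log2 ratios -5.74 and -6.94). Lcn2, a siderophore-binding protein of innate defence, was at 681, 10.2 and 11.6 FPKM (-6.05), and Saa3 at 419, 7.67 and 11.96 (-5.76). The gap between NCD-veh and both other livers exceeded that between the other livers for each of these 4 genes.

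The Saa1 and Saa2 promoters are shown because these neighbours are read in opposite directions and are near copies up to their start. Fragments may be shared between the 2 genes, but the transcripts were not compared here, and the windows do not measure it. Capitals mark bases that differ, or have no partner, in the alignment of the RefSeq windows. In mm9 they are chr7:53998351-53998600 on the - strand for Saa1 and chr7:54006953-54007202 on the + strand for Saa2.
Saa1: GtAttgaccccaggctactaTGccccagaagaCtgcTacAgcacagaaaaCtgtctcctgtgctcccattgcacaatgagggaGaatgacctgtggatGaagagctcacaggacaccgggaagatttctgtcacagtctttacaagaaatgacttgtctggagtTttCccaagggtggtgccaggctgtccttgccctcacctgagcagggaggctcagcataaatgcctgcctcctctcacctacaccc
Saa2: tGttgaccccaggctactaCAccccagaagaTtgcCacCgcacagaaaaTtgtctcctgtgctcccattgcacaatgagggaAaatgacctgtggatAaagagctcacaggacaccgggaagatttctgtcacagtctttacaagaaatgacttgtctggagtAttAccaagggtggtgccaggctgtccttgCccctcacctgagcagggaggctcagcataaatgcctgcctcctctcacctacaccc
They were identical at 238 of 250 bases (95.2%). The sum of Saa1 and Saa2, which does not depend on that split, was 2.65% of the summed FPKM of the table in NCD-veh and 0.0387% in HFD-veh, against 0.0832% in HFD-ncls.

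Other acute-phase proteins followed with smaller ratios. Orm2, an orosomucoid, was at 1166 FPKM in NCD-veh and 86.2 in HFD-veh, against 98.3 in HFD-ncls, with Orm1 at 2930.3, 626 and 659 and Orm3 at 63.1, 11.3 and 8.16. The metallothioneins Mt1 and Mt2, which bind zinc and respond to glucocorticoids and cytokines, were at 1431 and 584 FPKM in NCD-veh and 199.5 and 45.5 in HFD-veh (log2 ratios -2.84 and -3.68). Hpx and Hp, the carriers of heme and hemoglobin, were at 6697 and 4311 FPKM in NCD-veh and 1915 and 1601 in HFD-veh. Together, 11 of these genes (Saa1 to Saa3, Lcn2, Orm1 to Orm3, Mt1, Mt2, Hpx and Hp, chosen after their values were seen) made up 6.19% of the summed FPKM in NCD-veh and 0.976% in HFD-veh, against 1.14% in HFD-ncls. Apcs, serum amyloid P, had a log2 ratio of -2.18 and complement C3 one of -1.26.

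Other members of the list lay within 2-fold. The fibrinogen genes Fga, Fgb and Fgg had log2 ratios of -0.69, -0.51 and -0.57, Crp was at 171 and 185 FPKM, and Hamp, the iron hormone hepcidin, at 3601 and 3110.3. The coagulation factors F2 and F9 were at 779 and 66.5 FPKM in NCD-veh and 642 and 67.6 in HFD-veh. Steap4, a metalloreductase, was the one member that was higher in HFD-veh, at 15.3 and 36.5 FPKM (1.25). Of the cytokines known to drive this response, Il6 was listed at 0 in all 3 livers, and Il1b was at 0.522 and 0.581 FPKM, under the filter.

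**Figure D4:**
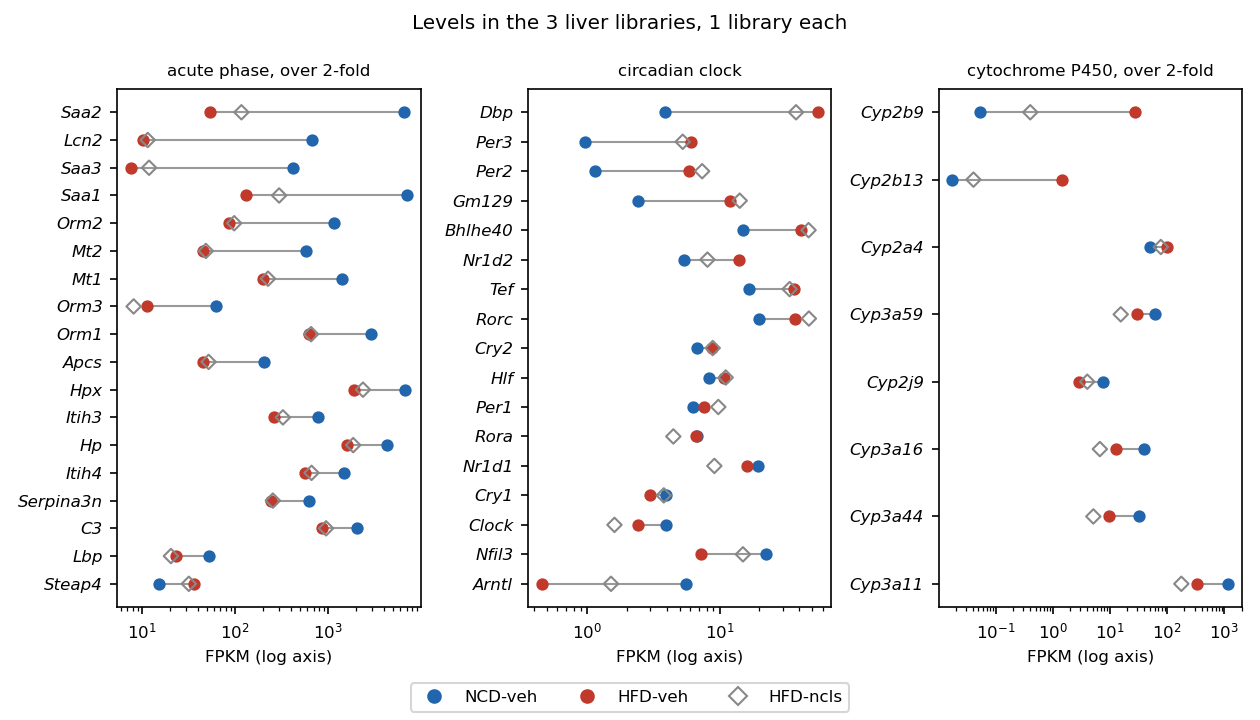
FPKM (log axis) in NCD-veh (blue circles), HFD-veh (red circles) and HFD-ncls liver (grey diamonds), 1 library each, for the 18 acute-phase genes over 2-fold, the 17 compared clock genes and the 8 P450 genes over 2-fold. For the acute-phase genes the diamond sits next to the red circle and the blue circle stands apart, whereas Cyp2b9 and Cyp2b13 have the red circle apart.

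Transcripts of immune cells were not higher in HFD-veh liver. Of 29 macrophage and monocyte genes compared, none was higher and 3 were lower, with a median log2 ratio of -0.46. With a pseudocount of 1 in place of 0.1, none of these 3 calls remained. The lower genes were Marco, a scavenger receptor of resident macrophages, at 2.37 and 0.824 FPKM, Cd5l, a secreted macrophage protein, at 26.9 and 13.4, and Fcer1g, a signalling chain of Fc receptors, at 20.8 and 10.3. All 6 Kupffer cell markers were below NCD-veh, with ratios from -1.42 to -0.19 and a summed level of 68.3 FPKM in NCD-veh and 41.4 in HFD-veh, against 30.1 in HFD-ncls. The gene nearest to higher was Cd14, at 0.665 and 1.17 FPKM. Markers of lipid-associated macrophages were near 0: Trem2 was at 0.264 and 0.0460 FPKM and Gpnmb at 0.0109 and 0.0227.

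Antigen presentation was level, with none of 19 compared genes over 2-fold, and ratios that ran from H2-DMa (-0.61) to Psmb9 (0.74). Cd74, the invariant chain, was at 47.0 FPKM in NCD-veh and 35.4 in HFD-veh, against 52.5 in HFD-ncls. Interferon-response genes gave 2 lower and none higher of 34, with a median of -0.02, and neither call remained with a pseudocount of 1. Oas2 was at 1.31 and 0.423 FPKM and Rsad2 at 3.02 and 1.38, and Gbp7 had the largest ratio (0.79). Lymphocyte genes were too low to compare: 2 of 38 passed the filter, Zap70 and Ccl5, with log2 ratios of 0.13 and 0.06. Of the neutrophil list Fpr1 (1.54 and 0.802 FPKM) and S100a8 (1.24 and 0.433) passed, the latter on about 6 and 2 fragments, a ratio of 3 with an interval of 0.536 to 30.4 for counting error.

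Of 21 cytokine, chemokine and receptor genes compared, 1 was higher and none lower. Cxcl1, a neutrophil attractant that hepatocytes can make, was at 1.57 FPKM in NCD-veh and 9.31 in HFD-veh, against 7.30 in HFD-ncls (2.49), which is the reverse of the acute-phase genes. Il18bp had the lowest ratio (-0.96). Of 23 stellate cell and matrix genes, 2 were higher and 2 lower, and with a pseudocount of 1 the call of Mmp14 alone remained. Lrat, which stores retinol in stellate cells, was at 0.979 and 2.46 FPKM and Acta2, smooth muscle actin, at 0.742 and 1.83. The collagen Col1a1 was at 2.50, 1.14 and 2.72 FPKM in the NCD-veh, HFD-veh and HFD-ncls libraries, and the matrix protease Mmp14 at 16.9, 6.44 and 7.93. Genes of fibrosis therefore had no common direction.

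Clock genes differed in both directions. Of 17 compared, 7 were higher and 2 lower, with a median log2 ratio of 0.37. Dbp, an output factor that binds D-boxes, was at 3.87 FPKM in NCD-veh and 54.8 in HFD-veh, against 37.7 in HFD-ncls (3.79). The repressors Per3 and Per2 were at 0.965 and 1.15 FPKM in NCD-veh and 6.09 and 5.89 in HFD-veh (2.54 and 2.26), and Gm129 (now Ciart), another repressor, at 2.43 and 11.9 (2.25). The activator Arntl (BMAL1) was the reverse, at 5.61 FPKM in NCD-veh and 0.457 in HFD-veh, against 1.52 in HFD-ncls (-3.36). Its partner Npas2 was at 0.884 FPKM in NCD-veh and listed at 0 in HFD-veh, under the filter in both, and Nfil3, which opposes Dbp, at 22.3 and 7.28 (-1.61). Per1, Cry1 and Nr1d1 lay within 2-fold, with ratios of 0.28, -0.38 and -0.26.

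The promoters of Gm129 and Per3 are shown as members over 2-fold higher that hold the letters through which the clock acts. Capitals mark the E-box CACGTG, bound by CLOCK and BMAL1, in Gm129, and the D-box TTATGTAA (reverse complement TTACATAA), bound by DBP and NFIL3, in Per3. The mm9 windows, on the - strand and from the RefSeq table, are chr3:95686152-95686401 and chr4:150418775-150419024, and the first reaches 23 bases past the start of Gm129 in the mm9 annotation.
Gm129: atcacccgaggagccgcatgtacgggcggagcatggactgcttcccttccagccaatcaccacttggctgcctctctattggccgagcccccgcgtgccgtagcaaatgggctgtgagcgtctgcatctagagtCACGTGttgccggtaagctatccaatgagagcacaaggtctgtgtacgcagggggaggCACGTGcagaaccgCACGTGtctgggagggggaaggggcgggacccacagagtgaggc
Per3: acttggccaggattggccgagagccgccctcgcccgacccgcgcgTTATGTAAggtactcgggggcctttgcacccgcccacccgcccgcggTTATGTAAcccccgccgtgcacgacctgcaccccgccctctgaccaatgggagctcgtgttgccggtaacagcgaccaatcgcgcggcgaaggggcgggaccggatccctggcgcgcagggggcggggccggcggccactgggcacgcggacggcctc
The 3 E-boxes begin 116, 58 and 44 bases before the RefSeq start of Gm129 and the 2 D-boxes 205 and 158 bases before that of Per3. Of 14 clock genes with a window, 4 held CACGTG (Per1, Cry1, Tef and Gm129), against 6.86% of all genes, and 1 held TTATGTAA on either strand, against 0.977%. Of the 5 members with a window that were over 2-fold higher, 2 held the E-box and 1 the D-box.

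In the other organs of the same groups, the 18 clock genes compared gave 1 higher and 4 lower in WAT (median log2 ratio -0.50), 0 and 1 in BAT (-0.17) and 2 and 0 in muscle (0.30). Because these genes swing through the day and the hour of collection is not given, a difference of diet and one of time or feeding state cannot be told apart here. This holds as well for the genes of lipid and bile acid synthesis, many of which are rhythmic in liver.

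Glucose genes were partly higher in HFD-veh. Of 35 compared, 9 were higher and 1 lower, with a median log2 ratio of 0.33. Ppp1r3g, a glycogen-targeting subunit of protein phosphatase 1, was at 0.260 FPKM in NCD-veh and 2.83 in HFD-veh, against 4.59 in HFD-ncls (3.03). Ppp1r3c, another such subunit, was the lower gene, at 40.1, 7.46 and 5.24 FPKM (-2.41). The glycogen synthase Gys2 and branching enzyme Gbe1 had log2 ratios of 1.47 and 1.48. Of the gluconeogenic enzymes, G6pc was at 161 and 295 FPKM (0.88) and Pck1 at 1048 and 850.3, both within 2-fold.

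Immediate-early and stress genes split. Of 33 compared, 5 were higher and 8 lower (median -0.19), and with a pseudocount of 1 these counts were 4 and 5. Egr1, Fos and Jun, which cells switch on within minutes of a stimulus, were at 1.89, 0.145 and 3.18 FPKM in NCD-veh and 47.5, 3.04 and 15.0 in HFD-veh (log2 ratios 4.58, 3.68 and 2.20). Egr1 and Fos were also higher in HFD-veh BAT (log2 ratios 3.06 and 4.54), muscle (2.48 and 3.08) and WAT (0.52 and 1.03). Jun lay within 2-fold in those organs. Rgs16, a regulator of G-protein signalling and 1 of the 10 genes with the highest log2(FPKM + 1) ratio, was at 1.67 FPKM in NCD-veh and 65.3 in HFD-veh, against 57.4 in HFD-ncls. The lower genes included Cdkn1a, the cell cycle inhibitor p21, at 10.4 and 1.46 FPKM, and Asns, asparagine synthetase, at 5.21 and 0.947 with 6.65 in HFD-ncls. The heat shock genes Hspa1a and Hspa1b, near copies with shared reads possible, had log2 ratios of -1.85 and -1.99. Tff3, a secreted trefoil peptide among the 10 genes with the lowest log2(FPKM + 1) ratio, was at 48.4 FPKM in NCD-veh and 4.17 in HFD-veh, against 79.6 in HFD-ncls (-3.51), so that HFD-veh was the low library.

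The HFD-veh liver library held transcripts of skeletal muscle. All 8 skeletal muscle markers were highest there, with a summed level of 2.10 FPKM in NCD-veh and 68.8 in HFD-veh, against 3.11 in HFD-ncls. Ckm (muscle creatine kinase), Tnnt3 (fast troponin T) and Pvalb (parvalbumin) were listed at 0 in both other livers and were at 10.3, 10.2 and 7.82 FPKM in HFD-veh. The excess over the mean of the other livers was 0.0588% to 0.064% of the HFD-veh muscle level across these 8 markers, with a median of 0.0605%. Of the 300 muscle-enriched genes with values, 176 were highest in HFD-veh. The share over all genes is not given beside this count, and 56 of the muscle-enriched genes passed the filter in liver. Of the 23 with at least 1000 FPKM in HFD-veh muscle, 22 were highest in HFD-veh liver. Their median excess was 0.0593% of the muscle level (quartiles 0.0514% and 0.0631%). The origin of these transcripts was not tested.

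**Figure D5:**
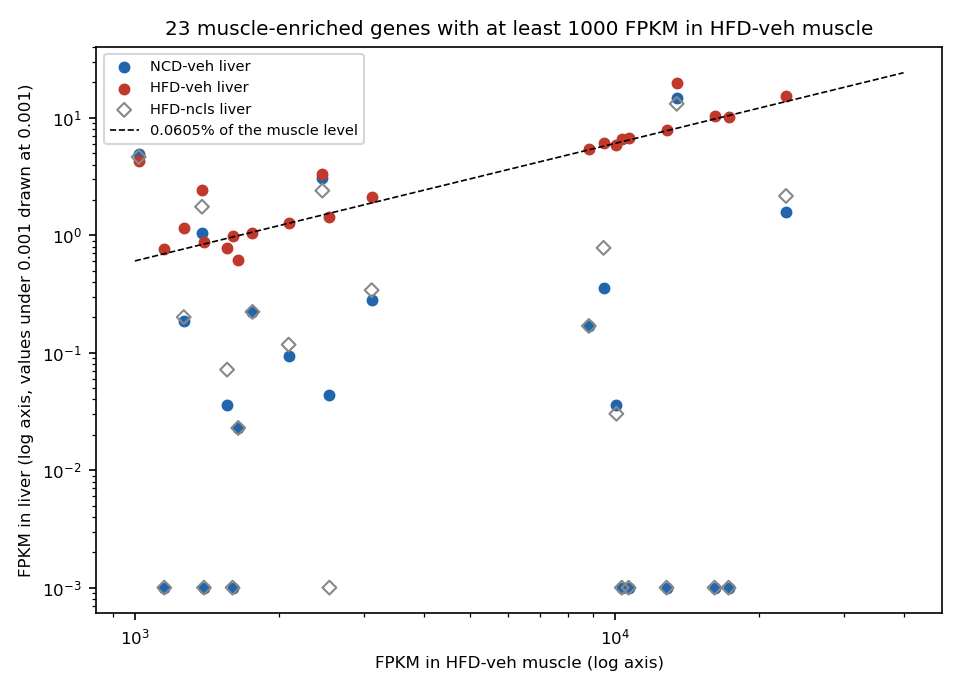
FPKM in each of the 3 liver libraries (y axis) against FPKM in HFD-veh muscle (x axis) for 23 muscle-enriched genes, log axes, 1 library per series, with a dashed line at 0.0605% of the muscle level. The HFD-veh points follow the line over the range of muscle levels, while NCD-veh and HFD-ncls points lie below it or at the floor for most genes, apart from Tpm1, Pfkm, Eno3 and Des.

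Of the 56 muscle-enriched genes that passed the filter, 15 were over 2-fold higher in HFD-veh and 1, Tuba8, lower. With these genes counted in, 2.86% of the 10016 genes were over 2-fold higher and 2.27% lower. The 5 with the highest level in HFD-veh liver were genes that liver itself expresses: Slc38a4 was at 197 FPKM in NCD-veh and 303 in HFD-veh, Got1 at 146 and 128, Fitm1 at 34.2 and 62.9, Abcb4 at 64.5 and 58.2, and Tcea3 at 52.6 and 54.4. In HFD-veh muscle Slc38a4, Got1 and Abcb4 were lower than in that liver, at 21.9, 86.2 and 28.8 FPKM. Fitm1 and Tcea3 were higher, at 190 and 224. The rule uses the median of the 9 other libraries, so genes of liver can meet it. Abcb4 and Fitm1 were thereby left out of their bile acid and lipid droplet lists. Within the list of fast muscle genes the lowest ratio was that of Cox7a1 (0.06), which is also expressed in liver. Myh4, a fast myosin heavy chain listed at 0 in NCD-veh and HFD-ncls and at 4.82 FPKM in HFD-veh, has no value in the muscle libraries, so it could not be classed as muscle-enriched and is 1 of the 271 higher genes. As an alternative chosen after seeing the data, 0.0605% of the HFD-veh muscle level was subtracted. Of the 270 higher genes with a muscle value, 269 stayed over 2-fold higher, and nothing could be subtracted from Myh4. The exception was Pfkfb3, with a log2 ratio of 1.005 before and 0.992 after. Muscle-enriched genes were already set apart, so the subtraction could change few calls and does not decide where the transcripts came from.

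Fat and blood transcripts were examined in the same way. Of 5 adipocyte markers, Adipoq, Lep and Retn were listed at 0 in all 3 livers and Plin1 reached 0.0246 FPKM in HFD-veh, but Cfd (adipsin, a complement protease made by fat cells) was at 0.163 FPKM in NCD-veh and 10.2 in HFD-veh, against 5.71 in HFD-ncls. The Cfd values rested on about 3 fragments in NCD-veh and 180 in HFD-veh, a ratio of 60 with a 95% interval of 20.2 to 294 for counting error. Of the wider adipocyte list, 3 of 5 compared were higher (Cfd, Cidec and Pparg), and the lipase Lipe had the lowest ratio (0.40). Of 3 red blood cell markers compared, 2 were over 2-fold lower and 1 was above its NCD-veh level, within 2-fold (log2 ratio 0.24). Hbb-b1, a hemoglobin gene, was at 260.4, 114 and 145 FPKM in the NCD-veh, HFD-veh and HFD-ncls libraries, where reads may be shared with its neighbour copy. Of 20 cell cycle genes, 5 passed the filter, with Rrm2 higher, at 0.850 and 2.58 FPKM, and Birc5 the lowest ratio (-0.56).

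At the threshold itself, the genes just over 2-fold higher were Tmem184b (4.97 and 10.1 FPKM) and Pfkfb3 (1.41 and 2.94), and those just under it Cse1l (4.39 and 8.87) and Tagln (1.96 and 4.02). On the lower side Cd5l and Fcer1g were just past 2-fold, while Thpo (9.05 and 4.48 FPKM) and Tmem82 (10.5 and 5.22) were just short of it.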

How the data were processed

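Total RNA of mouse liver was sequenced by the authors, who aligned reads to mm9 with TopHat 2.0.11 and deposited FPKM per RefSeq gene from Cufflinks. No further scaling is stated, and the depth behind each FPKM is known only approximately from the steps of low values, so its intervals cover counting error only. Samples were grouped by their titles, with 1 library per group, which allows no test.

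Computations used Python 3.11.15, numpy 2.4.6, pandas 2.3.3, scipy 1.17.1, matplotlib 3.10.9 and Biopython 1.88 and were tested on simulated data. Genes without a value in either liver library (78 symbols) were left out. Muscle-enriched genes had a mean FPKM of 10 or more in muscle that was 20 or more times their median over the 9 other libraries. Genes listed under 0.001 FPKM in 1 library and at 5 or more in the other were set apart. The comparison, its members and the gene lists were chosen with earlier results of these data known, so no list is tested.

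Genes were named by rule: in each list, up to 3 with the highest and 3 with the lowest ratio over 2-fold, or the nearest to it; the 10 highest and 10 lowest on log2(FPKM + 1); the 5 muscle-enriched genes highest in HFD-veh liver; and a set list of lipid, P450 and immune genes. Hmgcs1 and some other list symbols had no row in the table and were not analysed here. Promoters came from RefSeq (GRCm38.p6). Some genes that the rule names are counted in their lists but not reported here. The windows of Sqle, Fdps and Cyp7a1 were not used here. Alternatives changed the pseudocount, the filter, the scaling and the muscle rule.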

Additional observations from a re-analysis of the deposited data

Results flagged for a closer look

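For 7 of the 20 genes with the 10 highest and 10 lowest log2(FPKM + 1) ratios in liver, another organ of the same groups showed a ratio of over 2-fold in the opposite direction. No share over all compared genes is given beside this count, so it describes these genes only. Each value is 1 library against 1, and none of these differences between organs was tested.

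Saa3 was at 7.56 FPKM in NCD-veh and 61.8 in HFD-veh WAT, a log2 ratio of 3.01 against -5.76 in liver, and had a ratio of 2.59 in muscle, from 0.112 to 1.18 FPKM. Saa1 had a ratio of 2.14 in WAT, where it was at 0.163 and 1.06 FPKM. Orm2 had one of 1.05 in WAT, at 15.9 and 33.1 FPKM. Lcn2 had one of 1.81 in BAT, at 0.378 and 1.58 FPKM. Mt2 had one of 1.62 in muscle, at 4.805 and 15.0 FPKM. Other values of the same genes ran the way of liver: in BAT Orm2 was at 12.6 and 5.36 FPKM (-1.22) and Mt2 at 280.2 and 95.5 (-1.55), and in muscle Lcn2 was at 1.08 and 0.324 (-1.47). Over the whole acute-phase list, BAT had 4 genes higher and 7 lower of 21 compared (median log2 ratio -0.06). WAT had 15 higher and 4 lower of 38 (0.57), and muscle 26 and 1 of 34 (2.83). Hepatocyte markers were also higher in HFD-veh muscle, for 9 of 10 compared, and in HFD-veh WAT, for 4 of 7, with 2 lower. The muscle and WAT values may therefore include liver transcripts, which was not tested.

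Dbp had a log2 ratio of -1.29 in WAT, at 45.7 FPKM in NCD-veh and 18.6 in HFD-veh, against 3.79 in liver. Cfd had ratios of -3.64 in WAT (8163 and 653 FPKM), -1.02 in BAT (821 and 404) and -1.20 in muscle (76.7 and 33.4), against 5.29 in liver.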

How the results depend on the processing

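The counts of genes depend on the pseudocount and the filter. With a pseudocount of 1 the counts were 153 genes higher and 113 lower, without a filter on FPKM 476 and 486, and with an FPKM of at least 5 they were 153 and 116. With a pseudocount of 1 the calls of Mogat1, Acsl3, Mvk, Cyp2a4, Ugt1a5, Pfkfb3, Rrm2, S100a8 and Sox9 were also lost, beside those given with their lists. The counts stayed within 1.5 times 271 and 225 with a pseudocount of 0.01, after rescaling by 0.974 to a median ratio of 1, with muscle-enriched and near-0 genes counted in, and with the muscle share subtracted, the last chosen after seeing the data. The share of muscle-enriched genes highest in HFD-veh was 58.7%, 68.0% at 50 times the other libraries and 76.1% at a mean muscle FPKM of at least 100. These shares have no share over all genes beside them. List medians moved by less than 1.5-fold in all 118 recomputations. Of 534 recomputed values of named genes, 27 moved by more than that, all under another pseudocount, and none reversed. No paired analysis was possible because the labels give no replicate numbers and each group has 1 library, and for the same reason no library could be left out. At 1 library per group, differences between animals, collection times and diets cannot be told apart.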

Other observations

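Genes outside the lists that were over 2-fold different are given here as values, and all were chosen after their values were seen. Higher in HFD-veh were Alas1, the rate-limiting enzyme of heme synthesis in liver, at 63.8 FPKM in NCD-veh and 211 in HFD-veh, against 373 in HFD-ncls (log2 ratio 1.72), and Upp2, a liver uridine phosphorylase, at 41.8, 189 and 135. Mid1ip1, a relative of Thrsp that acts with it on acetyl-CoA carboxylase, was at 5.52 and 22.8 FPKM. Usp2, Wee1 and Nampt, which the clock is known to control in liver, were at 6.22, 0.632 and 6.68 FPKM in NCD-veh and 23.5, 5.52 and 17.1 in HFD-veh. Car3, a carbonic anhydrase of liver, fat and muscle, was at 1107 and 2415 FPKM, and Uox, urate oxidase, at 353 and 850.2.

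Lower in HFD-veh were some further secreted proteins of liver: Lrg1 was at 878 FPKM in NCD-veh and 298 in HFD-veh, against 436 in HFD-ncls, Fgl1 at 566, 155 and 175, and Ambp at 2802, 1302 and 1466. Of single genes known to act in protein folding and turnover in the endoplasmic reticulum, Creld2 was at 37.5 and 13.7 FPKM, Manf at 34.3 and 16.7, and Syvn1 at 43.0 and 18.1. Chka, choline kinase, was at 20.3 and 4.03 FPKM. Csad, which makes taurine and is repressed by bile acids, was at 96.9, 34.0 and 70.6 FPKM in the NCD-veh, HFD-veh and HFD-ncls libraries. Cib3 was low in HFD-veh alone, at 8.75, 1.38 and 12.1 FPKM.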
